A study of Mus musculus with 16 samples.

Results

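The comparison described here sets naive mouse embryonic stem cells, day 0, against the same cells after 8 days of priming. It rests on 4 of the 16 libraries of the series, 2 from day 0 and 2 from day 8, taken by their labels. The cells are of the line E14TG2a and carry 1 knock-in copy of Dnmt1, N1580A, beside 1 normal copy. All 4 libraries share that genotype and the same labelling with Ado-6-azide, and the labels do not say whether the knock-in line is a single clone. Naive cells grew in medium with 15% fetal bovine serum, 1000 U/mL LIF and 2 kinase inhibitors, 3 µM CHIR99021 and 1 µM PD0325901. Priming used the serum and LIF without the inhibitors. The labels do not say whether replicates came from separate cultures, and each p-value here reflects only how far the deposited libraries of a day differ, which may be technical variation. A total of 2380 windows of 1 Mb, 15455 windows of 100 kb and 5998 gene bodies on the 19 autosomes held enough positions to be tested.

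DNMT1 is the maintenance methyltransferase: it copies methylation onto the new DNA strand after replication, guided to hemimethylated CpG sites by UHRF1. Ground-state cells held in the inhibitors have a genome low in DNA methylation, and the genome gains methylation when the inhibitors are withdrawn. The knock-in enzyme accepts an azide-bearing analog of the methyl donor. Cells took up the analog by electroporation at 1 mM, DNA was isolated 3 h later, and reads started from an oligonucleotide attached at the azide. A listed CpG is therefore read as a place of DNMT1 activity in that interval, not as the methylation level of the site. Some listed positions can be background, since libraries without the knock-in enzyme list positions too. Polycomb proteins, named below, keep developmental genes silent by histone modification, and the clustered protocadherins are neuronal adhesion molecules whose alternative promoters depend on DNA methylation for their choice.

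The libraries differed in yield, and this decided how they were compared. The day 0 libraries listed 383292 and 399896 autosomal CpG positions, and the day 8 libraries listed 3011952 and 2556018. Mean reads per listed position were 10.8 and 12 on day 0 and 4.12 and 4.05 on day 8. Each library was therefore thinned at random to 383292 positions, so that every count below is a share of an equal total. Gains in total label are not visible on this scale: a region called lower has a smaller part of the day's positions. Wild-type libraries, which lack the knock-in enzyme, listed 945 to 9027 autosomal positions and serve as the background. After thinning, the day 0 libraries shared 4.98% of their positions with each other. The day 8 libraries shared 2.78%, and pairs of a day 0 and a day 8 library shared 2.95% to 3.00%.

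The shares of labelled positions in broad parts of the genome differed between day 0 and day 8. Of the 2380 windows of 1 Mb, 318 rose on day 8 (13.4%) and 274 fell (11.5%) by edgeR's quasi-likelihood test at a Benjamini-Hochberg adjusted p under 0.05. The median log2 change was 0.51 in the windows that rose and -0.42 in those that fell, against 0.02 over all windows. Before thinning, the windows that fell listed 59576 and 63374 positions on day 0 and 360653 and 307916 on day 8. These are thus falls in share and not in the number of listed positions. The spread of the log2 difference between days (SD 0.32 over windows) exceeded that between replicates, which was 0.20 on both days. In all 318 windows that rose both day 8 libraries lay above both day 0 libraries, and in 273 of the 274 that fell both lay below. That separation, without any test, was seen upward in 33.5% and downward in 28.1% of all tested windows. The calls rest on all 4 libraries. With any 1 of them left out no window passed, although all 592 kept their direction and 503 to 560 windows had an unadjusted p under 0.05. DESeq2 called 37 windows, 10 higher and 27 lower.

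Among windows of at least median count, the one with the largest rise held Arid1a, a subunit of the BAF chromatin remodeller, and Wasf2, an actin regulator (chr4:133000001-134000000, mm10). It had 182 and 167 positions on day 0 and 331 and 273 on day 8, a log2 change of 0.79 ± 0.10 (SE, adjusted p = 5.71e-05, edgeR). The groups did not overlap, which this ranking required of every window in it. Days 2 and 4, which were not used for the calls, gave 186 and 223, then 279 and 300. The 26 protein-coding genes there cover 58.5% of the window.

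The other windows of this ranking that rose held 18 to 67 protein-coding genes each. Over all 318 windows that rose the median was 4, against 6 over all windows tested, and 33 held none while 89 held 20 or more. The window with Cpne5 and Mdga1 (chr17:29000001-30000000) had 226 and 190 positions on day 0 and 359 and 312 on day 8, a log2 change of 0.69. On chromosome 11 the window with Npepps, Kpnb1 and the Polycomb subunit gene Pcgf2 (chr11:97000001-98000000) went from 203 and 194 to 341 and 297, a log2 change of 0.68. A window of 67 protein-coding genes, among them the glutamate receptor gene Grin2d and the apoptosis gene Bax, went from 266 and 213 to 374 and 380 (chr7:45000001-46000000, log2 change 0.65). That both day 8 counts stood clear of both day 0 counts was a condition of the ranking. The remaining windows in this class held Hdac1 (chr4:129000001-130000000), the Polycomb genes Cbx7 and Cbx6 (chr15:79000001-80000000) and Kdm2b (chr5:122000001-123000000). Their log2 changes lay between 0.57 and 0.59. These windows hold 32, 34 and 22 protein-coding genes, and the window with Pcgf2 holds 28. The genes named are a choice from them, and a window's count is not assigned to any single gene. Cbx7 encodes a chromodomain subunit of Polycomb repressive complex 1, and KDM2B brings a variant of that complex to unmethylated CpG islands.

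The 8 windows of the same ranking that fell held 1 to 16 protein-coding genes each. Over all 274 windows that fell the median was 5, and 8 held 20 or more. The window at the start of the assembled sequence of chromosome 9, with Gucy1a2 (chr9:3000001-4000000), had 211 and 204 positions on day 0 and 104 and 122 on day 8, a log2 change of -0.88 ± 0.12 (SE, adjusted p = 5.71e-05, edgeR). A cluster of zinc finger genes with Zfp978, Zfp982 and Rex2 (chr4:147000001-148000000) went from 199 and 242 to 139 and 112, a log2 change of -0.81. The window with Zfp951, Pkd2 and the bone matrix genes Spp1 and Dmp1 (chr5:104000001-105000000) went from 295 and 325 to 168 and 205, a log2 change of -0.73. The ranking required these windows, too, to be separate between days.

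Further windows lay over long genes. Tbc1d5, a regulator of vesicle traffic, shares a window with the germ cell RNA-binding gene Dazl (chr17:50000001-51000000), and counts there were 275 and 290 on day 0 against 185 and 172 on day 8. Gpc6, a heparan sulfate proteoglycan gene, covers 98.0% of its window (chr14:117000001-118000000), with 228 and 260 on day 0 against 160 and 154 on day 8. The log2 changes were -0.66 and -0.64. On thinned reads in place of positions the Gpc6 window had -0.34 and did not pass. The remaining windows of this class held Tasor2 and Net1 (chr13:3000001-4000000), Eea1 (chr10:96000001-97000000) and Gng2 with Nid2 (chr14:19000001-20000000), with log2 changes of -0.70, -0.67 and -0.62.

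**Figure D1:**
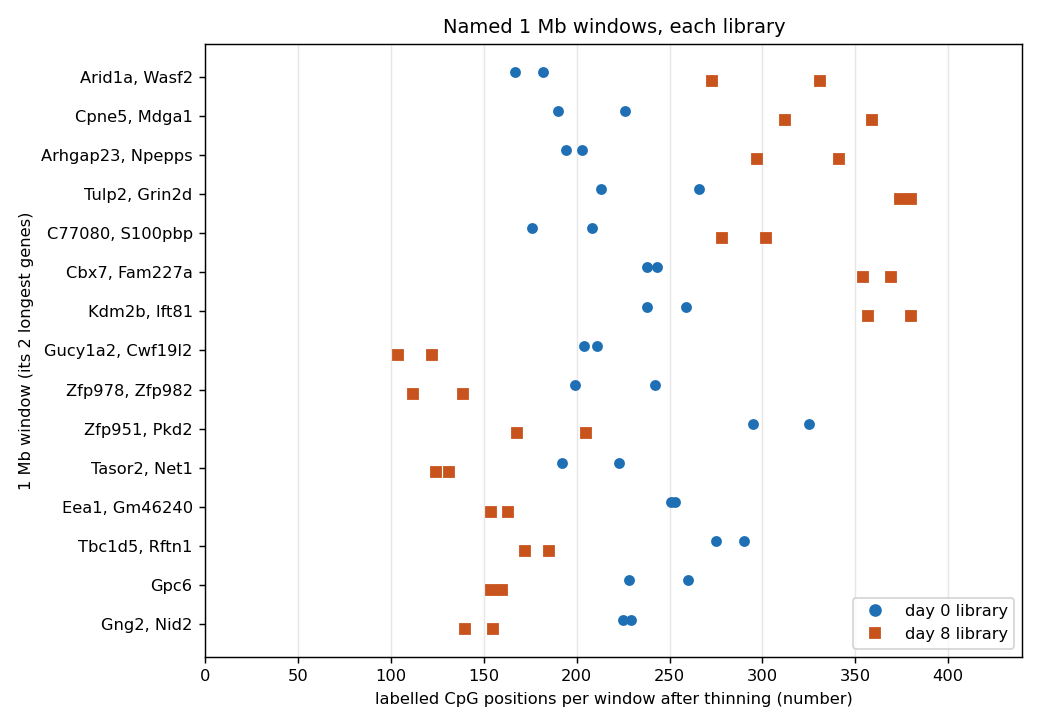
Thinned position counts (horizontal axis) in each library for 7 of the 8 windows of 1 Mb with the largest rise and the 8 with the largest fall among those of at least median count. Circles are the 2 day 0 libraries and squares the 2 day 8 libraries. Separation of circles and squares was a condition of the choice.

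Larger ratios were found in windows of lower counts, which were looked at after their values were seen. The largest rise of all lay wholly inside Dlg2, which encodes a postsynaptic scaffold protein (chr7:91000001-92000000): 23 and 27 positions on day 0 against 64 and 68 on day 8, a log2 change of 1.40 ± 0.22 (SE, adjusted p = 0.000188, edgeR). Next came a window with part of Mgat4c, a gene of the glycosyltransferase family, which went from 19 and 22 to 52 and 54 (chr10:101000001-102000000, log2 change 1.36), and its neighbour chr10:102000001-103000000 had 1.12. The window inside Cntnap2, a neurexin-family adhesion gene, went from 24 and 19 to 48 and 52 (chr6:45000001-46000000, log2 change 1.21). Windows at the glutamate receptor genes Grm5 (chr7:87000001-88000000) and Grm7 (chr6:110000001-111000000) had log2 changes of 1.20 and 1.18. Fstl5 (chr3:76000001-77000000) had 1.24, Dpp10 (chr1:124000001-125000000) 1.13, Csmd3 (chr15:48000001-49000000) 1.12 and Cadm2 (chr16:67000001-68000000) 1.11. A window without any annotated protein-coding gene also rose, from 24 and 28 positions to 56 and 57 (chr11:39000001-40000000, log2 change 1.12). So did the window of the transcription factor genes Tfap2d and Tfap2b (chr1:19000001-20000000), from 35 and 43 to 79 and 92. No day 8 count in these windows reached down to a day 0 count, as was true of every called window that rose. DESeq2 called only the windows of Dlg2 and Tfap2d among those just named, and the Grm7 window did not pass with another draw of the thinning. Wild-type and wild-type control libraries listed between 0 and 3 positions in each of the windows named, too few to compare as shares.

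The largest falls among windows of lower counts lay in clusters of related genes. A zinc finger cluster with Zfp972 and Zfp970 (chr2:177000001-178000000) had 80 and 76 positions on day 0 and 27 and 23 on day 8, a log2 change of -1.64 ± 0.21 (SE, adjusted p = 5.71e-05, edgeR). A stretch of predicted genes on chromosome 12 (chr12:20000001-21000000) had 200 and 201 against 61 and 71, a log2 change of -1.60, and its neighbours chr12:19000001-20000000 and chr12:18000001-19000000 had -1.45 and -1.18. On thinned reads the first of these neighbours had -0.75 and did not pass. Clusters of secretoglobin genes (chr7:32000001-33000000) and of major urinary protein genes (chr4:61000001-62000000 and chr4:60000001-61000000) had log2 changes of -1.40, -1.21 and -1.08, of which the last did not pass with another draw. Secretoglobins and major urinary proteins are secreted small proteins whose genes lie in recently duplicated arrays. Windows were not corrected for mappability, repeat content or number of CpG sites, so these falls are not assigned to the gene families. Mean reads per position on day 8, before thinning, were 4.12 and 4.05 over all tested windows. They were 2.76 and 2.75 at chr12:19000001-20000000 and 2.91 and 3.51 at the secretoglobin cluster. At chr12:20000001-21000000 and chr4:61000001-62000000 they were 4.52 and 4.09, and 4.06 and 4.04. The part of such features was not tested.

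Positions that both day 0 libraries listed were common in several of these windows. In the chromosome 12 window 22.0% of the thinned positions of the first day 0 library were also in the second, and at the start of chromosome 9 it was 29.4%, against 4.98% over all tested windows. Over all windows that fell the share was 6.18%, and over those that rose 4.06%. The day 8 libraries shared 2.85% and 3.04% there. With positions shared by a day's libraries left out before thinning, 474 windows were called and 590 of the 592 kept their direction. Of the 2 that turned, 1 is the gene-free window chr2:98000001-99000000. It had 117 and 109 positions on day 0 and 62 and 48 on day 8, a log2 change of -1.04, which became 0.31 without the shared positions. In this window 52.1% of the first day 0 library's positions were shared. Its positions had 60.6 and 75.5 reads on average in the day 0 libraries and 22.7 and 25.8 on day 8, and the wild-type libraries listed 2 to 11 positions there. The fall of this window therefore holds only with the shared positions counted. Wild-type and wild-type control libraries had 0.0332% to 0.212% of their autosomal positions in this window. Before thinning the day 0 libraries had 0.0305% and 0.0275% there, and the day 8 libraries 0.0163% and 0.0160%. The part of background positions in this window was not tested.

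Neighbouring windows tended to move together. Over 2353 pairs of adjacent windows the log2 change correlated at 0.28 (Pearson, as a description), against -0.01 for the difference between the day 0 replicates and 0.11 for that between the day 8 replicates. Adjacent windows share libraries and, where genes cross a border, sequence. The called windows formed 51 runs of at least 2 adjacent windows that rose, with 127 windows, and 47 runs that fell, with 111 windows.

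The longest run that rose spanned 8 Mb of chromosome 11 (chr11:95000001-103000000). It holds 284 protein-coding genes, among them the Hoxb cluster, the chromatin reader gene Cbx1, and Stat5b, a signal transducer of cytokine receptors. It had 1792 and 1775 positions on day 0 and 2464 and 2281 on day 8, a log2 ratio of 0.41, with 2156 and 2257 on day 2 and 2450 and 2495 on day 4. A run of another kind lay on the same chromosome (chr11:37000001-43000000). Its 6 Mb hold only 9 protein-coding genes, of which Tenm2, a synaptic adhesion gene, is the longest. Counts there were 249 and 293 on day 0 and 438 and 451 on day 8, a log2 ratio of 0.71. The other long runs that rose were gene-dense: chr4:132000001-137000000, with Arid1a, Ephb2 and the pluripotency RNA-binding gene Lin28a (1127 and 1142 to 1631 and 1508, log2 ratio 0.47), and chr11:75000001-79000000, with Smg6 and Nlk (847 and 790 to 1060 and 1031, log2 ratio 0.35). In all 4 runs the libraries of the days were separate. Every called window that rose was separate, so for runs made of such windows this was fixed by the choice.

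The 5 longest runs that fell held 13 to 43 protein-coding genes each. The longest spanned 6 Mb of chromosome 7 (chr7:133000001-139000000), with the Rac activator gene Dock1, the metalloprotease gene Adam12 and the DNA repair gene Mgmt. It had 1722 and 1680 positions on day 0 and 1303 and 1321 on day 8, a log2 ratio of -0.37. A run on chromosome 9 (chr9:115000001-119000000) holds Rbms3, the TGF-beta receptor gene Tgfbr2, the integrin gene Itga9 and the mesendoderm factor gene Eomes, and went from 1215 and 1187 to 915 and 858 (log2 ratio -0.44). A run on chromosome 8 (chr8:89000001-93000000) holds Fto, Sall1, Irx3 and Irx5 and went from 1074 and 1093 to 832 and 842 (log2 ratio -0.37). The run on chromosome 13 (chr13:59000001-63000000), with the neurotrophin receptor gene Ntrk2, placental cathepsin genes and zinc finger genes, had a log2 ratio of -0.42. The run on chromosome 15 (chr15:91000001-95000000), with Lrrk2, Cntn1 and Tmem117, had -0.39. The day 0 and day 8 counts of these runs did not overlap, which building them from called windows all but fixed in advance.

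The 318 windows that rose held 10.2% and 9.92% of all positions of the day 0 libraries, before thinning, and 13.5% and 13.3% on day 8. Since the windows were chosen on these libraries, that difference describes the choice. The other libraries were not used for it. In the rising set day 2 had 12.3% and 12.4%, day 4 13.4% and 13.5%, and the Het triplicate, 3 libraries of the same genotype whose culture state the labels do not give, 13.2% to 13.4%. In the 274 windows that fell, day 0 had 15.5% and 15.8%, day 2 12.9% and 12.8%, day 4 12.1% and 12%, day 8 12% and 12%, and the Het triplicate 12.1% to 12.2%. Day 2 lay between day 0 and the later days in both sets. Choosing windows by their day 0 values by itself sets day 0 apart from libraries outside the choice, so these distances are a description. Wild-type background libraries had 13.4% to 16.2% in the rising set and 10.9% to 12.2% in the falling set. These background values lay nearer to day 8 than to day 0.

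**Figure D2:**
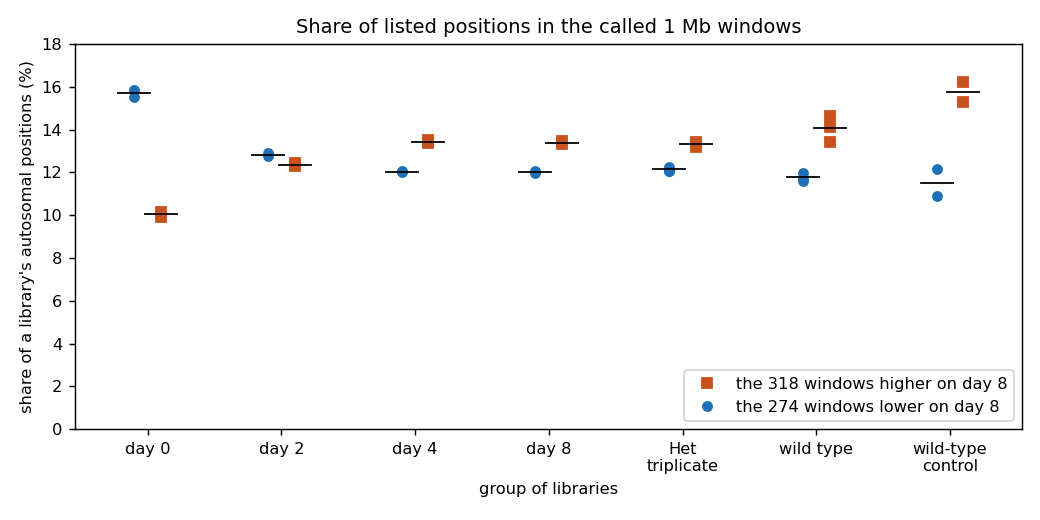
Share of each library's autosomal positions (vertical axis, %) in the windows that rose (squares) and in those that fell (circles), by group. Black lines are group means. The windows were chosen on days 0 and 8, day 0 sits at about 10% and 16%, and day 2 lies between day 0 and the later days.

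Days 2 and 4 can also be set against each other without either end point. In the windows that rose from day 0 to day 8, the day 4 libraries exceeded the day 2 libraries in 227 of 318 (71.4%), with a median log2 difference of 0.11. In the windows that fell they were lower in 209 of 274 (76.3%), with a median of -0.10. Few windows passed by themselves in a fit of all 8 day libraries. Of the 318 that rose 7 were called higher on day 4 than on day 2, and of the 274 that fell 0 were called lower. Over all tested windows day 4 exceeded day 2 in 46.5%, with a median of -0.01.

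Windows that rose came from both ends of the range of label density, measured as positions listed in the Het triplicate, which the calls did not use. Windows were put into 5 classes of 476 by that density. In the class of lowest density 21.4% rose and 6.30% fell. In the class of highest density 19.3% rose and 10.3% fell. In classes 3 and 4 4.83% and 6.93% rose, and 11.8% and 18.7% fell. The lowest class had 6.58% and 6.65% of thinned positions on day 0 and 7.03% and 7.71% on day 8, a log2 ratio of 0.16. Class 4 had 27.0% and 27.1% against 25.8% and 25.7%, a log2 ratio of -0.07. In both classes the days did not overlap.

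**Figure D3:**
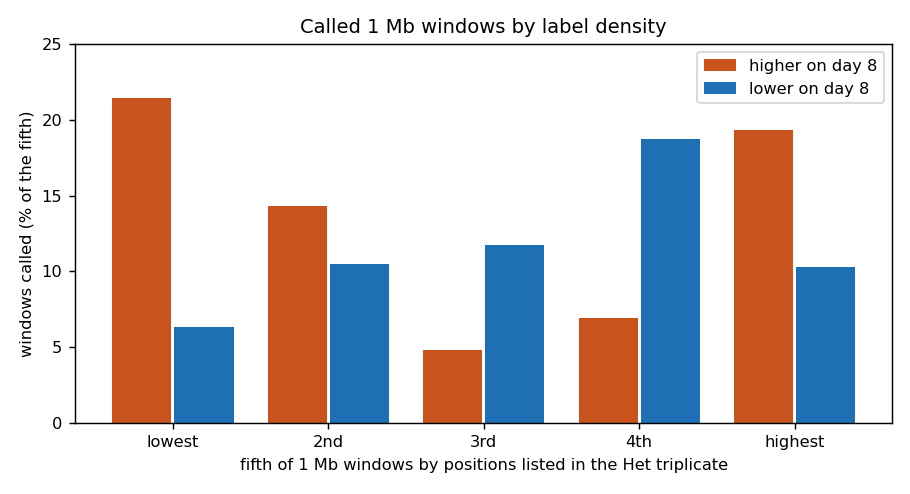
Percentage of 1 Mb windows called higher (left bars) or lower (right bars) on day 8 in 5 equal classes of windows by label density in the Het triplicate, from lowest to highest. Higher calls are most frequent in the lowest class, 21.4%, and the highest, 19.3%, and lower calls in class 4, 18.7%.

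The classes of label density differ in gene content. The lowest class is mostly gene-poor, with a median of 5.61% of the window inside gene bodies. Within it, 12 of the 17 windows with at least 80% in protein-coding bodies rose (70.6%) and none fell. Of the 176 without a protein-coding gene 30 rose (17.0%). Over the whole range of density, of the 283 windows with 20 or more protein-coding genes 89 rose (31.4%) and 8 fell (2.83%). These shares stand beside 13.4% and 11.5% over all windows.

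The chromosomes' shares of positions as wholes differed little between days. Chromosome 11, one of the most gene-dense, held 5.79% and 5.71% of thinned positions on day 0 and 6.34% and 6.14% on day 8, a log2 ratio of 0.12. Of its 118 windows 38 rose (32.2%), beside 13.4% over all windows. Chromosome 13 held 5.04% and 5.09% on day 0 and 4.70% and 4.71% on day 8, a log2 ratio of -0.11. Of its 117 windows 22 fell (18.8%), beside 11.5% over all windows. The first 5 Mb of the chromosomes, next to the centromeres, had 3.56% and 3.55% against 3.37% and 3.37%, a log2 ratio of -0.08. The last 5 Mb overlapped between days, with 5.16% and 5.03% against 5.17% and 5.09%.

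At finer scale few features passed the test. Of 15455 windows of 100 kb none rose and 4 fell (0.0259%) by edgeR, while 2250 had an unadjusted p under 0.05. Both day 8 libraries lay above both day 0 libraries in 19.8% and below in 23.4%. The SD over windows was 0.47 for the log2 difference between days, which are means of 2 libraries, and 0.48 and 0.46 for the difference between single replicates on day 0 and day 8. With the day 2 and day 4 libraries added to the fit, 175 windows rose and 290 fell, and without thinning 1031 rose and 1129 fell.

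The 4 windows of 100 kb that fell were places where the day 0 libraries shared many of their positions. The gene-free window chr2:98600001-98700000 had 63 and 68 positions on day 0 and 11 and 14 on day 8 after thinning, a log2 change of -2.38 ± 0.23 (SE, adjusted p = 0.0426, edgeR). Before thinning the day 8 libraries listed 95 and 90 there, and 93.7% of the first day 0 library's positions were in the second. Its positions had 104 and 116 reads on average on day 0 and 102 and 104 on day 8. The wild-type and wild-type control libraries listed 2 to 11 positions there, 0.0222% to 0.212% of their autosomal positions. Before thinning the day 0 libraries had 0.0164% and 0.0170% there, and the day 8 libraries 0.00315% and 0.00352%. The part of background positions in this window was not tested. The window at chr14:19400001-19500000 had 51 and 61 against 9 and 9 after thinning, with 86 and 71 on day 8 before it and 76.5% shared on day 0. The windows at Sfi1 (chr11:3100001-3200000) and at chr12:20200001-20300000 had log2 changes of -1.75 and -2.00, with 49.2% and 31.6% shared. Before thinning the day 8 libraries listed 274 and 244 positions in the first and 249 and 190 in the second, more than on day 0. In all 4 windows the day 8 libraries thus listed more positions than the day 0 libraries before thinning, by less than the libraries as wholes did, and thinning turns this into a lower count. The calls are of a smaller share of positions and not of fewer labelled sites. On thinned reads in place of positions the 4 log2 changes were -0.92, -0.77, -0.60 and -1.51, and none passed. With any 1 library left out none of the 4 passed. Mean reads per position on day 8 were 13.9 and 13.5 in the Sfi1 window. They were 8.55 and 8.08 in the chromosome 14 window and 5.89 and 5.57 in the chromosome 12 window. Over all tested windows of 1 Mb they were 4.12 and 4.05. The part of these read numbers, and of the sites already listed by both day 0 libraries, in these falls was not tested.

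Among 5998 gene bodies 1 rose (0.0167%) and 3 fell (0.05%), together 0.0667%, with 961 at an unadjusted p under 0.05. Dlg2 had 74 and 78 positions on day 0 and 154 and 171 on day 8, a log2 change of 1.10 ± 0.12 (SE, adjusted p = 0.0245, edgeR), with 138 and 131 on day 2 and 137 and 147 on day 4. Ttn, which encodes the giant sarcomere protein titin, had 178 and 203 against 96 and 98, a log2 change of -0.97 ± 0.12. Wwox, a tumour suppressor gene that spans a common fragile site, had 449 and 490 against 307 and 302, a log2 change of -0.62 ± 0.07. Sfi1, which encodes a centrin-binding protein, had 101 and 94 against 23 and 25, a log2 change of -2.02 ± 0.18 (adjusted p = 0.00679, edgeR). Each of the 4 was separate between days, which being called all but fixed in advance. For Sfi1 55.4% of day 0 positions were shared, the day 8 libraries listed 199 and 187 before thinning, and the change on reads was -0.57. Its positions had 17.4 and 21.7 reads on average on day 0 and 17.9 and 16.4 on day 8. Over all tested windows of 1 Mb the day 8 means were 4.12 and 4.05. None of the 4 genes passed on thinned reads or with any 1 library left out. These calls came and went with the random thinning, which gave 0 to 17 called genes over 4 other draws, and TMM scaling gave 163 higher and 143 lower.

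Promoter sequences of Dlg2 and Ttn are shown because these genes moved in opposite directions while both promoters had no listed CpG on day 0. They are RefSeq promoter windows of 300 bases on GRCm38.p6, whose coordinates are those of mm10, and capitals mark CpGs listed by at least 1 day 8 library before thinning. The Dlg2 promoter shown is the one inside the window of largest rise (chr7:91090536-91090835, plus strand), and that of Ttn lies on the minus strand (chr2:76982498-76982797).
Dlg2: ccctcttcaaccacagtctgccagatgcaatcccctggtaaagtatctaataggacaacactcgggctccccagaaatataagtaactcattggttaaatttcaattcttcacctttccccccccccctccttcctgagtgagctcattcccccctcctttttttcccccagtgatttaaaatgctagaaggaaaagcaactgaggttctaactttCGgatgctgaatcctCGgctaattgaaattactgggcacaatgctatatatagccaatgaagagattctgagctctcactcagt
Ttn: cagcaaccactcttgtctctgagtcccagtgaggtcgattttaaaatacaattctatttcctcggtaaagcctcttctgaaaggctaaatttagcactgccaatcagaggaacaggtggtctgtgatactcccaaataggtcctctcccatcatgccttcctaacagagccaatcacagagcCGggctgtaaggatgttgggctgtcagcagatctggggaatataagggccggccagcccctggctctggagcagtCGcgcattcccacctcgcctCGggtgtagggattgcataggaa
The Dlg2 promoter has 3 CpGs, of which 2 were listed on day 8 and 0 on day 0. That of Ttn has 8 CpGs, of which 3 were listed on day 8 and 0 on day 0. No library was thinned for these numbers, and the day 8 libraries list far more positions than the day 0 libraries, so the counts in a single promoter do not tell the days apart.

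Over all promoters the day 8 share was higher in CpG-poor and lower in CpG-rich sequence, as a description without a test. RefSeq gives 31396 autosomal promoter windows with 349578 CpG sites, and every one of the 5442 listed positions checked in them lay on the first base of a CpG. In promoters with 1 to 4 CpGs, 1.90% and 1.74% of sites were listed on day 0 and 2.10% and 1.97% on day 8 after thinning. In promoters with 5 to 9 CpGs, 1.57% and 1.42% of sites were listed on day 0 and 1.95% and 1.92% on day 8. In promoters with 20 to 29 CpGs, 0.160% and 0.0630% were listed on day 0, and 0.0386% and 0.0407% on day 8. With 30 or more CpGs it was 0.0793% and 0.0341% against 0.0119% and 0.00873%. Promoters with 10 to 19 CpGs overlapped between days, with 0.430% and 0.315% against 0.400% and 0.357%. The day 8 libraries were above day 0 in the CpG-poor classes and below it in the CpG-rich ones.

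The CpG-rich classes rest on few positions, and wild-type libraries have a larger share of theirs there. The day 0 libraries listed 157 and 62 sites in promoters with 20 to 29 CpGs, a wide gap between replicates, and the day 8 libraries listed 38 and 40. Per 1000 autosomal positions these were 0.410 and 0.162 on day 0 and 0.0991 and 0.104 on day 8. Wild-type and wild-type control libraries had 2.12 to 9.08 per 1000 there. The part of such background positions in the difference between days was not tested.

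**Figure D4:**
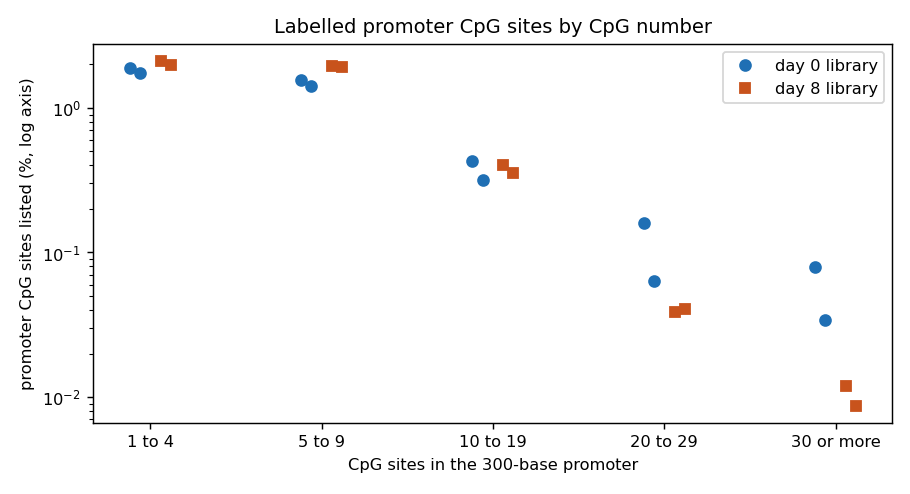
Percentage of promoter CpG sites listed after thinning (vertical log axis) by the number of CpGs in the 300-base promoter window. Circles are the 2 day 0 libraries and squares the 2 day 8 libraries. Squares are higher with 5 to 9 CpGs and lower with 20 or more, where the 2 circles are far apart.

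The promoters of Krt27 and Tmem267 are extreme examples of a CpG-poor and a CpG-rich sequence and do not show the typical share listed in their classes. Krt27, a keratin of the hair root sheath, lies in the 8 Mb run on chromosome 11 and is among the promoters of 5 to 9 CpGs with the most sites listed in both day 8 libraries (chr11:99351069-99351368, minus strand). Tmem267, a membrane protein gene, has the most CpGs listed on day 0 among promoters of 30 or more (chr13:119488223-119488522, plus strand). Capitals again mark CpGs listed by at least 1 day 8 library before thinning.
Krt27: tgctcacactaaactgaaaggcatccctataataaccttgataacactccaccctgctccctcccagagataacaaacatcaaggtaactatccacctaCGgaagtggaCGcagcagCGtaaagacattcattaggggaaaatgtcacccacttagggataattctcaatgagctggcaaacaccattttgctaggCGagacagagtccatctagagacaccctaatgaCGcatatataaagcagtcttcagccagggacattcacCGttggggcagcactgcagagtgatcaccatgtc
Tmem267: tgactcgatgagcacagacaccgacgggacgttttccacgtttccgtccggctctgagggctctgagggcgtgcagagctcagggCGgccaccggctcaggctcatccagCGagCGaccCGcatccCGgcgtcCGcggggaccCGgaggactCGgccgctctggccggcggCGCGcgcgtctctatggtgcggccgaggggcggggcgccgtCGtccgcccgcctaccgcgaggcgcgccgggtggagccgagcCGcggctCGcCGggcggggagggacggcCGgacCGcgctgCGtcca
All 6 CpGs of the Krt27 promoter were listed on day 8, 4 and 5 in the 2 libraries, and 0 on day 0. The Tmem267 promoter has 50 CpGs, of which 17 were listed on day 8 and 7 on day 0. Both promoters were chosen for these counts, which are a description. No library was thinned for them, and the day 8 libraries list far more positions, so the counts do not compare the days.

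Gene families were summed over their gene bodies to ask whether groups moved where single genes could not be tested. Of 73 groups, 54 had at least 200 positions on average. In 24 of these (44.4%) both day 8 libraries were above both day 0 libraries and in 13 (24.1%) both were below, with a median log2 ratio of 0.06. Among single tested genes the same separation was seen in 21.6% upward and 21.7% downward. Those genes had a median of only 18.5 positions. Among 1 Mb windows, with a median of 151.75, it was 33.5% and 28.1%. The percentages are therefore not of features of like count. These sums carry no test, and genes of a cluster share windows.

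Polycomb genes had the largest ratio of the 54 groups. Their 28 gene bodies, on 12 chromosomes, held 186 and 185 positions on day 0, 189 and 230 on day 2, 295 and 273 on day 4, and 288 and 285 on day 8, a log2 ratio of 0.63. Of the 6 members with enough positions to be tested, 4 were separate upward, 0 downward and 0 passed, with a median log2 change of 0.55 against 0.00 over all genes. Among all tested genes 21.6% were separate upward and 21.7% downward. Jarid2, a DNA-binding cofactor of Polycomb repressive complex 2, had 21 and 15 against 36 and 36, a log2 change of 1.00 ± 0.26 (SE, adjusted p = 0.152, edgeR). Cbx7 had 11 and 4 against 28 and 14, and Kdm2b had 23 and 25 against 43 and 32. Day 2 lay nearer to day 0, and day 4 to day 8. Wild-type and wild-type control libraries listed 0 to 9 positions in these genes, of 945 to 9027 autosomal positions each. The day 0 libraries had 0.0485% and 0.0483% of their thinned positions there, and the day 8 libraries 0.0751% and 0.0744%. Raw counts from such small totals do not show that the background share is low, and its part was not tested.

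Adhesion families of neurons followed. Protocadherin genes held 256 and 255 positions on day 0 and 346 and 393 on day 8, a log2 ratio of 0.53. Of the 35 tested members 22 were separate upward and 0 downward, beside 21.6% and 21.7% over all tested genes. Members of the gamma cluster overlap and share most of their positions. Those of the alpha cluster overlap too, so the members of these clusters are not separate observations. Pcdh15, a mechanosensory tip-link protein gene outside those clusters, had 95 and 95 against 127 and 142. The IgLON, Cadm and Mdga genes, immunoglobulin-type adhesion molecules, held 565 and 575 against 769 and 771, a log2 ratio of 0.43, with 8 of 8 tested members above 0. Among them Mdga2 had 26 and 20 against 59 and 51, and Lsamp had 92 and 114 against 146 and 161. Neurexins, contactins and their partners held 1769 and 1758 against 2146 and 2308, a log2 ratio of 0.34. Of their 31 tested members 19 were separate upward and 3 downward, and Dlg2 passed. None of the protocadherin or immunoglobulin-type genes passed the adjusted test.

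Receptor, guidance and splicing groups followed with log2 ratios of 0.22 to 0.44. GABA and glycine receptor genes, which mediate fast inhibition, held 218 and 233 positions on day 0 and 285 and 300 on day 8, a log2 ratio of 0.38. Of their 8 tested members 3 were separate upward, beside 21.6% over all tested genes. Olfactory receptor genes, 1100 short genes of which none could be tested alone, held 221 and 209 against 260 and 286, a log2 ratio of 0.34. Slit, Robo, netrin and Unc5 genes, which guide axons, held 801 and 768 against 893 and 935, a log2 ratio of 0.22. Within that family Dcc had 52 and 59 against 96 and 108, while Slit3 had 227 and 200 against 184 and 173. The splicing factor genes, the one group of the 8 highest with a household role, held 193 and 169 against 259 and 231, a log2 ratio of 0.44. The groups named as highest and lowest were chosen among those separate between days, so separation of these sums was fixed in advance.

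The groups with the lowest ratios were smaller in effect. Sox genes, transcription factors of many lineages, held 408 and 417 positions on day 0 and 334 and 337 on day 8, a log2 ratio of -0.30. Sox5 alone had 321 and 324 against 227 and 225, so that this 1 gene accounts for most of the group's positions. Without it the group held 87 and 93 positions on day 0 and 107 and 112 on day 8, separate in the other direction. Sox13 had 7 and 6 against 23 and 16, and 2 of the 3 tested members were above 0. Germline genes with methylated promoters, many of them piRNA and meiosis factors, held 246 and 221 against 195 and 196, a log2 ratio of -0.26, and 3 of 7 tested members were separate downward. Over all tested genes 21.7% were separate downward and 21.6% upward. Genes of the TGF-beta and BMP pathway held 681 and 720 against 648 and 623, a log2 ratio of -0.14, with 9 of 22 tested members separate downward and 2 upward. In that pathway Tgfbr2 had 51 and 41 against 18 and 18, and the ligand gene Tgfb2 had 34 and 44 against 28 and 22. None of these genes passed the adjusted test.

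The other low groups differed by a log2 ratio of -0.12 to -0.08. Dynein and kinesin genes, microtubule motors, held 1883 and 1856 positions on day 0 and 1760 and 1677 on day 8. Integrin genes held 609 and 569 against 537 and 552, zinc finger genes 2433 and 2471 against 2358 and 2258, and forkhead genes 560 and 569 against 533 and 537. The zinc finger group was mixed: Zfp978 had 46 and 45 against 15 and 12 and Zfp982 48 and 75 against 22 and 20, whereas Zfp568 had 5 and 4 against 21 and 23. So was the forkhead group, where Foxp1 had 244 and 250 against 183 and 156 and Foxp2 had 11 and 14 against 34 and 53. Of its 10 tested members 8 were above 0, 5 were separate upward and 2 downward, and the median log2 change was 0.34. The separate shares over all tested genes were 21.6% upward and 21.7% downward. Without Foxp1 the forkhead genes held 316 and 319 positions on day 0 and 350 and 381 on day 8, so the lower sum rests on that gene.

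**Figure D5:**
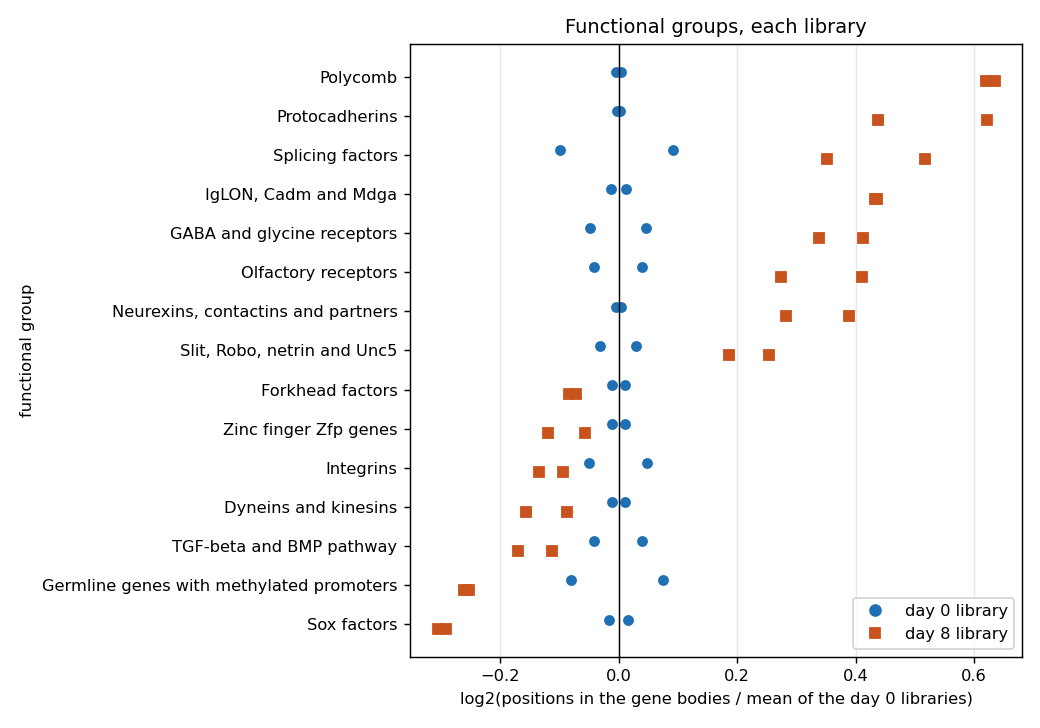
Log2 of the thinned positions in each library over the mean of the day 0 libraries (horizontal axis), for the 8 functional groups of at least 200 positions with the highest and 7 of the 8 with the lowest ratio among those separate between days. Circles are day 0 and squares day 8 libraries. Polycomb genes reach 0.63 and Sox genes -0.30.

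Genes of the methylation machinery and the pluripotency network did not pass. Of 15 such genes chosen for inspection 6 had enough positions to be tested. Dnmt1, the labelled enzyme's own gene, had 23 and 25 positions on day 0 and 31 and 34 on day 8, a log2 change of 0.44 ± 0.23 (SE, adjusted p = 0.429, edgeR). Tet1, a methylcytosine oxidase, had 19 and 16 against 29 and 24. Dnmt3a, a de novo methyltransferase, had 41 and 35 against 35 and 36, and Dnmt3b 10 and 14 against 10 and 6. Tet2, another oxidase, had 17 and 12 against 14 and 8. Esrrb, a naive-state nuclear receptor, had 35 and 36 against 46 and 42. The 21 genes of the methylation group together held 208 and 204 against 195 and 218, which overlap. Uhrf1, Dnmt3l, Prdm14, Nanog, Klf4, Tfcp2l1, Otx2, Fgf5 and Pou3f1 held 0 to 11 positions per library after thinning, too few for a test at this depth.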

How the data were processed

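Genomic DNA of 16 libraries was made by tethered oligonucleotide-primed sequencing. The submitters' processing notes name SAMtools 1.12, BWA 0.7.17-r1188, cutadapt 4.4 and build mm10. Their settings are not given in the sources used. Each deposited file holds, per its header, the raw read count at every CpG position with at least 1 read. Reads carry no molecular identifiers.

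Here distinct autosomal positions were thinned (seed 1) to 383292 per library and summed over windows of 1 Mb and 100 kb and over RefSeq gene bodies (20661 protein-coding and 12408 lncRNA genes, GRCm38.p6). Of the genes, 38.6% overlap another. A feature needed a sum of 40 over the 4 libraries. Days 0 and 8 were fitted with edgeR 4.0.16 (R 4.3.3; glmQLFit, glmQLFTest, no scaling factors) with Benjamini-Hochberg adjustment at 0.05, and DESeq2 1.42.0 was an alternative. Standard errors are the log2 change over the square root of F. The fits were tested on simulated data. Python 3.11.15, numpy 2.4.6 and pandas 2.3.3 were used.

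Named windows were the 8 with the largest change each way among those called, separate between days and of at least median count, with 6 each way for 100 kb windows and 12 each way for genes, the longest runs, 8 groups each way, and 15 fixed genes. Other named items were chosen after their values were seen. The members and gene lists were chosen with earlier results of these data known. X and Y were left out, and windows were not corrected for mappability, repeat content or number of CpG sites. Of the items the rule names, 1 window and 1 group are not reported here. Other seeds, no thinning, reads, at least 2 reads, other filters, an offset for repeat hits, TMM, a replicate block and left-out libraries were tried. Leaving out positions shared by a day's libraries was chosen after seeing the data.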

Additional observations from a re-analysis of the deposited data

Results flagged for a closer look

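Positions on X and Y lie outside the autosomal comparison and were listed in larger number than in the far shallower wild-type libraries. There were 6866 and 7231 in the day 0 libraries and 53144 and 46866 in the day 8 libraries, against 15 to 123 in the 5 wild-type and wild-type control libraries. As a share of all positions they made up 1.76% and 1.78% on day 0 and 1.73% and 1.80% on day 8, which overlap. The wild-type and wild-type control libraries had 0.829% to 1.86%, a range that holds these values, so as a share they do not stand above the background.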

How the results depend on the processing

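Counts of called features depended on the setting more than directions did. For 1 Mb windows, 592 called, the count was 438 to 670 under the other draws, filters, scalings and window borders tried, 847 with an offset for repeat hits, 904 without thinning and 37 with DESeq2, and without any 1 replicate it was 0. Called 100 kb windows, 4 in all, became 465 with all 8 day libraries, 2160 without thinning, 1980 with the offset, 9 with DESeq2 and 7 with another draw. They became 0 without a filter, with a sum of 20, on reads, with at least 2 reads, without shared positions and without any 1 replicate. Called genes, also 4, became 366 with all 8 day libraries, 306 with TMM, 635 without thinning, 532 with the offset and 21 with DESeq2. Other draws gave 0, 1, 17 and 6, at least 2 reads gave 1, and the remaining filters, reads, non-overlapping genes, shared positions left out and any 1 replicate left out gave 0. Runs, 98 in all, became 176 without thinning, 158 with the offset, 1 with DESeq2 and 0 without any 1 replicate. Of the 592 windows, 590 to 592 kept their direction under every setting that used the same windows (one was not tested with at least 2 reads). Of them 367 to 435 stayed called with other draws, 359 with at least 2 reads, 407 on reads and 352 without shared positions. Of single values named, 1 reversed: the 1 Mb window chr2:98000001-99000000, at 0.31 without shared positions. With a replicate block, 662 windows of 1 Mb, 0 of 100 kb and 4 genes were called. Replicate numbers were not taken as pairs: the replicate difference on day 0 correlated with that on day 8 at 0.04 over 2380 windows. Having 2 libraries a day and 383292 positions in each limits the finer scales, where the median tested 100 kb window has 20.5 positions.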

Other observations

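Several groups too small for the main account had large ratios. Cytosolic ribosomal protein genes, short and highly expressed, held 12 and 10 positions on day 0, 18 and 16 on day 2, 25 and 36 on day 4 and 39 and 39 on day 8 over 77 gene bodies. Hox genes, which pattern the body axis and are classical Polycomb targets, held 45 and 26 on day 0 and 74 and 66 on day 8, with 4 chromosomes contributing. Neither group had a member that could be tested alone. Naive pluripotency genes held 152 and 161 on day 0, 202 and 180 on day 2, 229 and 225 on day 4 and 190 and 176 on day 8, so that day 4 and not day 8 was highest. Of the larger groups not named above, imprinted genes held 812 and 800 against 798 and 744, separate and lower, with a log2 ratio of -0.06. Genes of the formative and primed state held 198 and 219 against 212 and 218, which overlap.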
